A study of Mus musculus with 18 samples.

Results

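The plasma protein genes Afp, Ttr, Alb, Apoa1, Apoa2, Apoa4, Apob, Apom, Apoh and Trf were followed in whole mouse embryos of a Tbx1 allelic series at embryonic day 9.5. They were listed by name, as genes that yolk sac endoderm is known to express. The list was proposed for shared variation, with earlier results of these data known. Of the 10 genes listed, 9 had probe sets of their own, 23 in all out of 45037 on the array (9 of 18193 genes). The only probe set for Trf, which encodes the iron carrier transferrin, was shared with its neighbour Srprb, so no value is given for Trf. Each of 18 Affymetrix Mouse Genome 430 2.0 arrays held the RNA of 1 embryo, on a mixed 129SvEv and C57Bl/6 background.

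Tbx1 is a T-box gene needed for the pharyngeal arches and the outflow tract of the heart, and the series set 9 genotypes side by side with 2 embryos each. WT carried 2 wild-type alleles. Neo2/+, Neo/+ and +/- carried 1 wild-type allele with a Neo2, Neo or null allele. No wild-type allele was present in Neo2/Neo2 and Neo/Neo, in the compound genotypes Neo2/Neo and Neo2/-, or in -/-. The alleles are germline, so every cell of an embryo carried its genotype, and no Cre or transgene was named. Whether yolk sac or decidua had been removed from the embryos, and which embryos were littermates, was not stated. The Tbx1 signal was 6.54 and 6.63 in WT, 5.04 and 5.20 in Neo/Neo, and 4.98 and 5.16 in -/-, on a log2 scale. In Neo2/Neo2 it was 6.62 on both arrays, level with WT.

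Plasma proteins are made first by the endoderm that lines the yolk sac and later by the hepatocytes of the liver, whose precursors bud from the foregut at about the stage studied. Both tissues secrete albumin-family carriers and the protein parts of lipoproteins. Factors of the HNF and FOXA families bind many of these genes in liver and yolk sac. In whole embryos, a lower signal from fewer cells of a type and from less RNA per cell cannot be told apart.

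The start regions of the members that neighbour each other are shown first: Alb lies next to Afp, with which it varied, and Apoa1 is separated from Apoa4 by Apoc3 alone. RefSeq promoter windows, 250 bases before to 50 after the start, were matched for 8 members on mouse build GRCm38.p6, with 2 windows for Apoa2. The windows printed 5′ to 3′ are chr5:90460620-90460919 for Alb, chr5:90490464-90490763 for Afp, chr9:46228380-46228679 for Apoa1 and chr9:46240594-46240893 for Apoa4, all on the plus strand. Capitals mark matches to a loosened HNF1 motif, in which some positions may hold any base and which was chosen after the windows had been seen, and to TGTTTNC, a FOXA motif, both searched on both strands. The longer runs of capitals, in Alb and Afp, are the HNF1 matches. The marked matches do not overlap.
Alb: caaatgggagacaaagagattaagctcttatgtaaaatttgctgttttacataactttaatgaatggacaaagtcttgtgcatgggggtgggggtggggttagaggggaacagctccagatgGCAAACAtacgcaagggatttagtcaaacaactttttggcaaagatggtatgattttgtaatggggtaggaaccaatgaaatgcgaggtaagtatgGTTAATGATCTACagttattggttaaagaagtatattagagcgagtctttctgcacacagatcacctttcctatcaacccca
Afp: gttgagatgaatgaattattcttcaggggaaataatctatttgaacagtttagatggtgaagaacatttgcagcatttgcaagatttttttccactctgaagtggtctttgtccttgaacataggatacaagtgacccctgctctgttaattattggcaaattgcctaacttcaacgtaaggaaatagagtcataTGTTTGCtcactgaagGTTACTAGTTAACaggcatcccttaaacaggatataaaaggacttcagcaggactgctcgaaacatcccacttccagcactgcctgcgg
Apoa1: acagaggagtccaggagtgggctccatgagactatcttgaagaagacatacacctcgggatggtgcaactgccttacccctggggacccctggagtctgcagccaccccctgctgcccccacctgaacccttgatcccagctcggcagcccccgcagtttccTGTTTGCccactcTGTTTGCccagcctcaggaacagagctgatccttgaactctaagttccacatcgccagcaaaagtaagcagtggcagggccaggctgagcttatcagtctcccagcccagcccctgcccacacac
Apoa4: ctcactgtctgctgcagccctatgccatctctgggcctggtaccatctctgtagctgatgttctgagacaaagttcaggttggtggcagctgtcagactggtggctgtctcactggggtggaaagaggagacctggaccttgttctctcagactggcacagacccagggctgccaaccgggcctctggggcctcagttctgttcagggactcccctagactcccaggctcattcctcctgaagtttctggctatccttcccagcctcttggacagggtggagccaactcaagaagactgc

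The HNF1 pattern was found in 2 of the 8 members searched, Alb and Afp, starting 32 and 39 bases before their start sites. It occurs in 0.597% of 32851 RefSeq promoter windows. The FOXA pattern was found in 7 of the 8 members, all but Apoa4 and for Apoa2 in 1 of its 2 windows, and in 20.5% of all RefSeq windows. Both patterns together occur in 0.152% of RefSeq windows, and among the members searched in Alb and Afp. These are matches of letters and no binding was measured.

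The carriers Afp, Alb and Ttr differed between embryos more than nearly all other genes did. Afp encodes alpha-fetoprotein, the main plasma protein of the fetus. Its signal ran from 7.37 on the first Neo2/Neo2 array through a median of 9.78 to 11.40 on the second Neo2/Neo array, a 16.4-fold range on the linear scale. Its SD over the 18 arrays, 1.08, was larger than that of 99.9% of genes, where the median SD was 0.16. Alb, which encodes albumin, ran from 5.34 to 8.13 with an SD of 0.75, larger than that of 99.3% of genes. Ttr, which encodes the thyroxine and retinol carrier transthyretin, ran from 6.19 to 8.85 with an SD of 0.71, larger than that of 99.1% of genes. The ranks of members among all genes are descriptions without a test, because the members were proposed with earlier results of these data known. All values of a gene are RMA log2 signals of its brightest probe set, which cannot be compared in level with those of another probe set.

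Among the genes of the high-density lipoprotein, Apoa2 varied most. It encodes a structural protein of the particle and ran from 5.79 to 7.82, with an SD of 0.53, larger than that of 97.5% of genes. Apoa1, the main protein of the particle, ran from 5.40 to 6.61 with an SD of 0.33. Apom, which carries sphingosine 1-phosphate on the particle, ran from 5.76 to 6.60 with an SD of 0.26. On the first -/- array all 3 of these genes reached their highest value.

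The other 3 genes had dim signals. Apob, the scaffold of low-density and very-low-density lipoproteins, ran from 4.25 to 5.38. Apoh, a phospholipid-binding plasma glycoprotein, ran from 4.30 to 5.0. Apoa4, a lipoprotein component of gut and liver, ran from 4.07 to 4.51 with an SD of 0.14, below the median of all genes. The median signal over genes was 6.77, RMA gives no detection call, and the levels of these 3 genes cannot be told from background.

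The members' values by genotype show where the spread lies. Afp was 9.78 and 10.36 in WT, 9.48 and 9.66 in Neo2/+, 10.00 and 8.06 in Neo/+, and 9.61 and 9.17 in +/-. Afp was 7.37 and 8.60 in Neo2/Neo2, 11.34 and 11.40 in Neo2/Neo, 10.38 and 10.20 in Neo2/-, 11.15 and 9.78 in Neo/Neo, and 9.95 and 8.56 in -/-. Both Neo2/Neo embryos were above all others and both Neo2/Neo2 embryos were below WT, while embryos of Neo/+, Neo/Neo and -/- lay far apart from each other. In the order of the genotype means, Neo2/Neo stood first at 11.37 ± 0.04 (SD, n = 2), followed by Neo/Neo, Neo2/-, WT, Neo2/+, +/-, -/-, Neo/+ and Neo2/Neo2 at 7.99 ± 0.87. Neighbours in this order overlapped except Neo2/Neo with Neo/Neo and WT with Neo2/+.

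Alb was 6.49 and 6.75 in WT, 6.39 and 6.37 in Neo2/+, 6.19 and 5.34 in Neo/+, and 6.09 and 5.91 in +/-. Alb was 5.96 and 5.93 in Neo2/Neo2, 8.13 and 7.91 in Neo2/Neo, 6.96 and 6.71 in Neo2/-, 7.33 and 6.29 in Neo/Neo, and 7.24 and 5.69 in -/-. Neo2/Neo was again above every other array, and the -/- embryos differed 2.93-fold from each other. Neighbouring genotypes in the order of means overlapped except Neo2/Neo with Neo2/-, and Neo2/+ with +/-.

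Ttr was 7.33 and 7.59 in WT, 7.27 and 7.44 in Neo2/+, 7.60 and 6.19 in Neo/+, and 7.33 and 7.23 in +/-. Ttr was 6.49 and 7.78 in Neo2/Neo2, 8.85 and 8.78 in Neo2/Neo, 7.80 and 7.64 in Neo2/-, 8.40 and 7.60 in Neo/Neo, and 8.69 and 7.64 in -/-. Neo2/Neo stood first as for Afp and Alb, and low values came from single embryos of Neo/+ and Neo2/Neo2. Neighbouring genotypes overlapped except Neo2/Neo with -/-, and Neo2/- with WT.

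**Figure D1:**
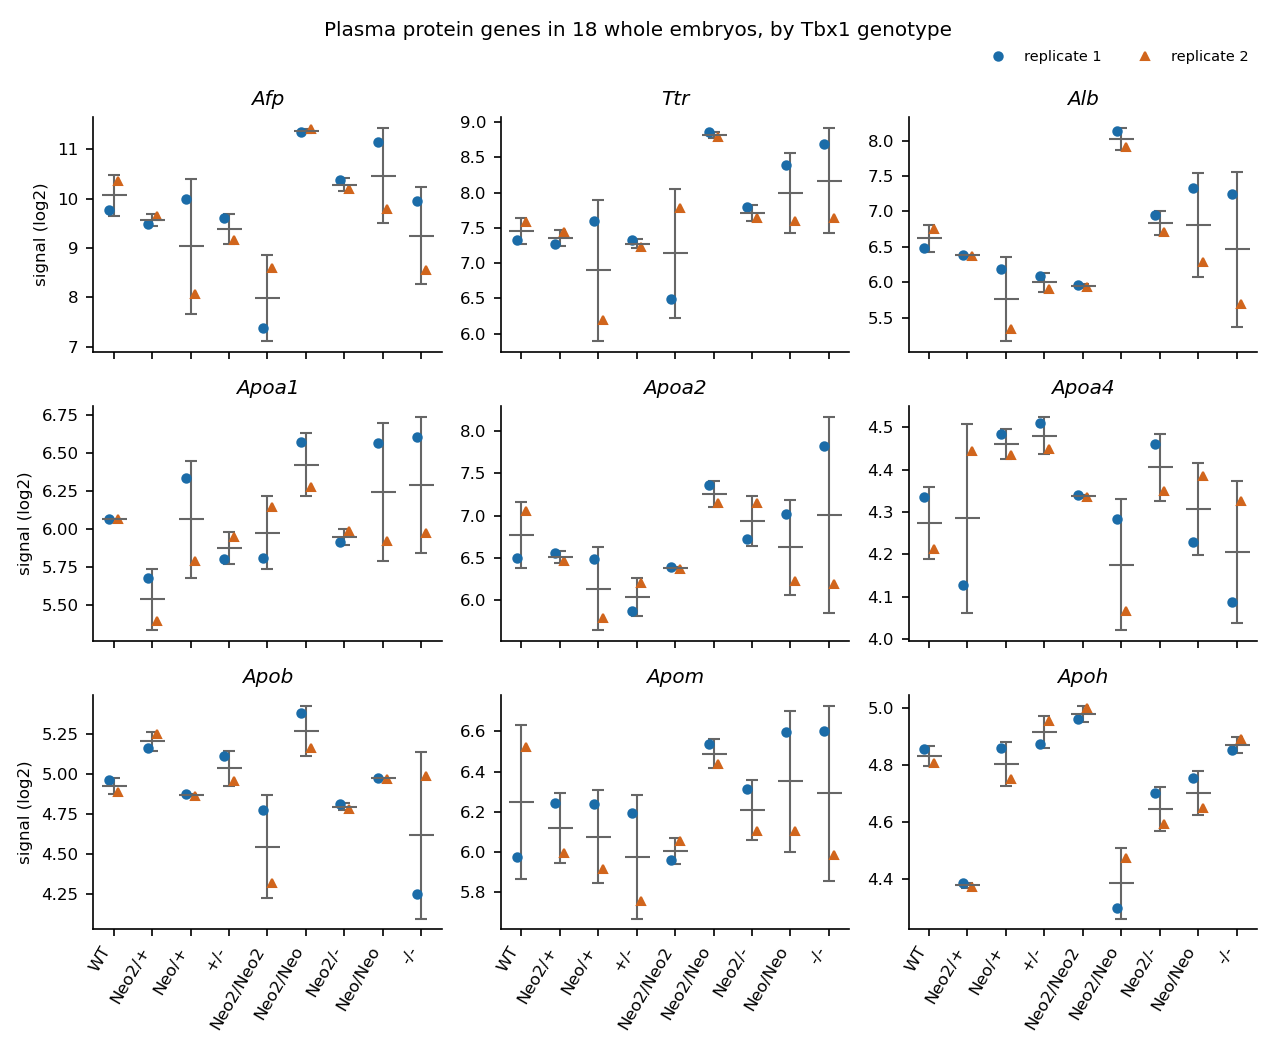
Log2 signal of the brightest probe set of 9 plasma protein genes (vertical axis, its own scale in each panel) in 9 Tbx1 genotypes (horizontal axis). Points are single embryos, and bars are the mean and SD of 2 embryos. Both Neo2/Neo embryos are highest for Afp, from 11.34 to 11.40, and for Alb, from 7.91 to 8.13, and embryos of Neo/+, Neo/Neo and -/- lie apart for the same genes.

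Embryos of a genotype differed strongly in these genes. The within-genotype SD was 0.73 for Afp, 0.56 for Ttr and 0.50 for Alb and Apoa2, on 9 degrees of freedom. The second Neo/+ embryo had 3.83-fold less Afp, 2.66-fold less Ttr and 1.79-fold less Alb than the first. The second -/- embryo had 2.62-fold less Afp, 2.93-fold less Alb and 3.10-fold less Apoa2 than the first. In contrast, the Neo2/Neo embryos differed 1.04-fold in Afp and 1.05-fold in Ttr. Between genotypes lay 75.8% of the variance of Afp, 76.7% of that of Alb, 67.3% of that of Ttr and 40.3% of that of Apom, against a median of 55.8% over all genes.

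A pair of arrays stood apart over the whole array: the first +/- array had a median correlation of 0.975 with the others and the first -/- array 0.985, against 0.991 to 0.995 for the rest. The first -/- array also held Prap1, a gene of the pregnant uterus, at 10.74, against 4.03 to 4.67 elsewhere, and the highest Apoa1, Apoa2 and Apom signals. The other 9 decidua and uterus genes did not stand out on that array, with a mean of 5.06 against 4.97 to 5.31 on the others. The ranges of Afp, Ttr and Alb over arrays were the same without both arrays, while that of Apoa2 went from 2.03 to 1.57. Sex, called from Xist and Y-linked genes, was female in 9 embryos and male in 9, and 4 genotypes held a single sex.

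The first comparison asked whether loss of Tbx1 dosage moves the plasma protein genes. In limma's test with Benjamini-Hochberg adjustment over all probe sets, at an adjusted p under 0.05, 0 of 23 member probe sets were called in each of the 8 comparisons of a genotype with WT. Few probe sets were called at all: 0% in Neo2/+, 0.0311% in Neo/+, 0% in +/-, 0.00222% in each of Neo2/Neo2, Neo2/Neo and Neo2/-, 0.0822% in Neo/Neo and 0.0311% in -/-. At an unadjusted p under 0.05 the member probe sets numbered 3 in Neo2/+, 3 in Neo2/Neo2, 9 in Neo2/Neo, 2 in Neo/Neo and 0 in the rest. Of all probe sets, 6.51%, 11.6%, 6.72% and 7.01% were under that p in these 4 comparisons, so that the member counts in Neo2/Neo2 and Neo/Neo were near the share over the array. In the rest, with 0 member probe sets, the share was 7.36% in Neo/+, 11.7% in +/-, 6.28% in Neo2/- and 15.1% in -/-. The 9 in Neo2/Neo came from Ttr, Apoa1, Alb, Afp and Apoh, with every Ttr probe set among them. The 8 comparisons share the same WT embryos.

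The sizes of these differences were large for Afp, Alb and Ttr even where they did not pass. Against WT, Afp in Neo2/Neo2 differed by -2.08 (SE 0.62, limma adjusted p = 0.25), with both embryos below both WT embryos. In Neo2/Neo, Alb differed by 1.40 (SE 0.42, limma adjusted p = 0.607), Ttr by 1.36 (SE 0.47, limma adjusted p = 0.65) and Afp by 1.31 (SE 0.62, limma adjusted p = 0.751), with both embryos above both WT embryos for all 3 genes. In -/-, Ttr differed by 0.71 (SE 0.47, limma adjusted p = 0.523), Afp by -0.81 (SE 0.62, limma adjusted p = 0.595) and Alb by -0.15 (SE 0.42, limma adjusted p = 0.915), so the 3 carriers did not share a sign. The median difference over the 9 genes was 0.36 in Neo2/Neo, -0.32 in Neo2/Neo2 and 0.04 in -/-, beside -0.01, 0.04 and 0.02 over all genes.

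Calls against WT depended on single arrays in a few places. Without the second -/- array, Apob was called lower in -/- (-0.68, limma adjusted p = 0.0206), where 1 -/- embryo remains, that on the array that stands apart, and its spread is assumed to be that of the other genotypes. Without both arrays that stand apart, a dimmer Afp probe set was called lower in Neo2/Neo2 (-1.88, limma adjusted p = 0.0447).

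Grouping the genotypes gave no call either. With 0 against 1 wild-type alleles (10 against 6 arrays), 0 of 23 member probe sets passed, with 0% of all probe sets called, and 9 had an unadjusted p under 0.05, beside 4.53% of all probe sets. These 9 came from Ttr, Alb, Apoa1 and Apoa2 alone, with every Ttr probe set among them. Ttr was 0.79 higher (SE 0.30), Alb 0.77 (SE 0.33) and Apoa2 0.61 (SE 0.22) without a wild-type allele, each with a limma adjusted p of 0.888. With 0 against 2 alleles and with 1 against 2 alleles, 0 member probe sets passed and 1 had an unadjusted p under 0.05 in each, beside 6.2% and 6.04% of all probe sets under that p and 0.00222% and 0% called. A regression on the Tbx1 signal called 0 of 23, with 0% of all probe sets called, and 9 had an unadjusted p under 0.05, beside 8.74% of all probe sets. These 9 were the probe sets of Ttr, Apoa1 and Apoa2 alone. Several probe sets of 1 gene are not independent of each other, so these counts are not counts of genes. Among the members the steepest slopes on Tbx1 were -0.71 for Afp (SE 0.37, limma adjusted p = 0.578) and -0.69 for Ttr (SE 0.21, limma adjusted p = 0.553).

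Complete loss was also set against the mean of Neo/Neo, Neo2/Neo, Neo2/Neo2 and Neo2/-, the 4 genotypes that pair Neo or Neo2 alleles with each other or with the null allele. There 0 of 23 member probe sets passed, 0.0244% of all probe sets were called, and 2 had an unadjusted p under 0.05, beside 17.5% of all probe sets. The difference was -0.77 for Afp (SE 0.49, limma adjusted p = 0.458). Without the second -/- array, 3 member probe sets passed, those of Apoa2 (1.03), Apob (-0.65) and the dimmer of Apoh (0.43), where again 1 -/- embryo remains, that with the Prap1 signal, and its spread is taken from the other genotypes.

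Asked for any difference between the 9 genotypes, limma's F-test called 1 of 23 member probe sets, that of Apoh, with 0.275% of all probe sets called. At an unadjusted p under 0.05 stood 11 member probe sets, beside 13.7% of all. They came from Afp, Ttr, Apoa1, Alb, Apob and Apoh, with several probe sets of 1 gene counted apart. Apoh was 4.86 and 4.81 in WT, 4.38 and 4.37 in Neo2/+, 4.86 and 4.75 in Neo/+, and 4.88 and 4.96 in +/-. Apoh was 4.96 and 5.0 in Neo2/Neo2, 4.30 and 4.47 in Neo2/Neo, 4.70 and 4.59 in Neo2/-, 4.76 and 4.65 in Neo/Neo, and 4.85 and 4.89 in -/-. The Neo2/+ and Neo2/Neo embryos overlapped each other and lay below all embryos of the other 7 genotypes, while the other Neo2 carriers, Neo2/Neo2 and Neo2/-, lay higher.

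The F statistic of Apoh was 11.1 (limma adjusted p = 0.0488), with a within-genotype SD of 0.07 and 95.2% of its variance between genotypes. Its second probe set gave an F of 2.20 (limma adjusted p = 0.45) and correlated with the first at 0.47. The call on Apoh was lost under 6 of 8 other settings and without most single arrays, and the signal is dim. Afp (limma adjusted p = 0.201), Alb (limma adjusted p = 0.194) and Ttr (limma adjusted p = 0.323) did not pass the F-test. Without the first -/- array 3 member probe sets passed it, those of Apoh and Alb and a dimmer one of Afp, and without the second -/- array 4 passed, with Apob in addition.

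The members fell into a group that varied together and a remainder that did not, a split made after the values had been seen. Over the 18 arrays the 15 pairs among Afp, Alb, Ttr, Apoa1, Apoa2 and Apom had Pearson correlations from 0.54 to 0.87, with a median of 0.76. Afp correlated with Alb at 0.87 and with Ttr at 0.81, and Alb with Ttr at 0.86 and with Apoa2 at 0.84. Over all 36 member pairs the median was 0.17, and 27.8% of pairs reached 0.7, beside 1.69% of all gene pairs. These are descriptions without a test, because the genes were proposed for shared variation, and all correlations share the same arrays.

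The likeness of the 6 genes was not a matter of genotype means alone. With deviations from the genotype means, the 15 pairs ran from 0.66 to 0.97, with a median of 0.83, and Afp and Ttr reached 0.97. Without both arrays that stand apart, the 15 pairs ran from 0.56 to 0.91. Apoa4, Apob and Apoh were not part of this pattern: their 18 pairs with the 6 genes ran from -0.70 to 0.35, with a median of -0.35.

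**Figure D2:**
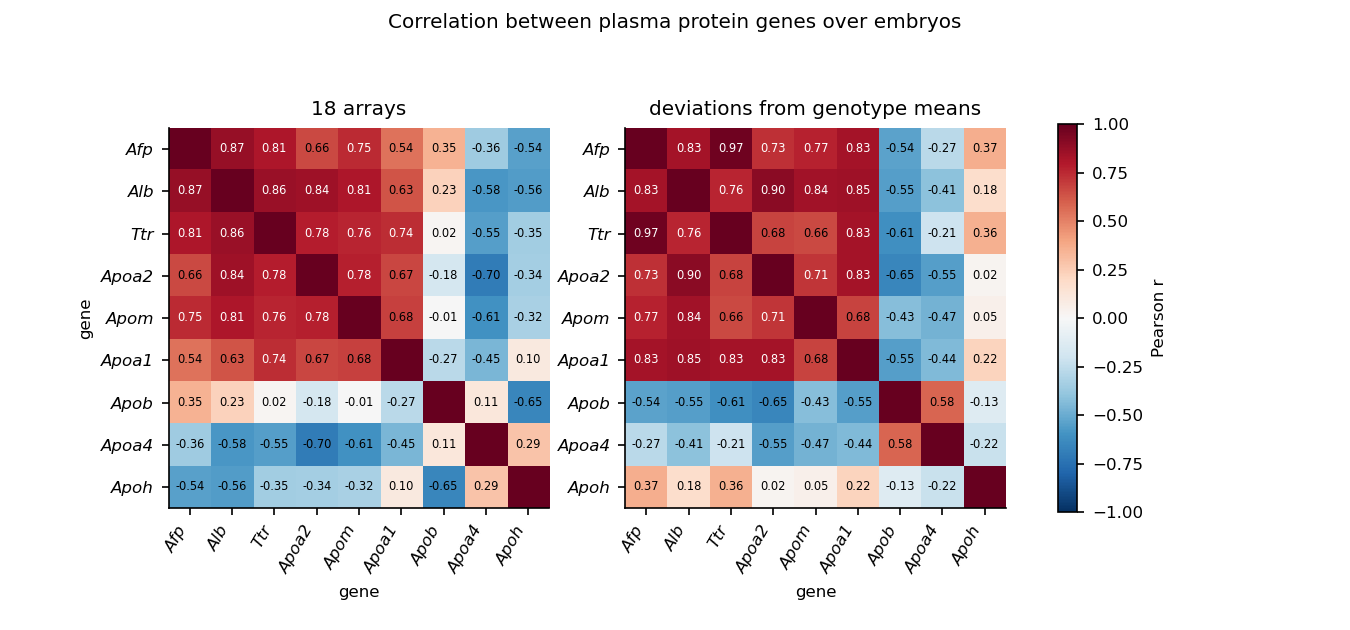
Pearson correlation between the brightest probe sets of 9 plasma protein genes over 18 arrays (left) and of deviations from the mean of each genotype (right), from -1 in blue to 1 in red. The 6 genes at the upper left are alike in both panels, with medians of 0.76 and 0.83, while Apob, Apoa4 and Apoh are not like them.

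Several probe sets of a gene agreed for Ttr, Apoa1 and Apom, and not for the dim genes Apob and Apoa4. The 4 Ttr probe sets correlated at 0.94 to 0.99, the 4 Apoa1 probe sets at 0.78 to 0.90 and both Apom probe sets at 0.77. For Afp the median over its 5 probe sets was 0.84, and the lowest value, -0.42, involved a dim probe set. Both Apob probe sets correlated at -0.41 and both Apoa4 probe sets at -0.40. The pairs for Apob and Apoa4 thus did not give the same pattern over embryos, and no pattern is read from these genes.

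The shared variation was next set against marker lists, with a member score defined as the average, over the 9 genes, of an array's distance from the mean of that gene. Each array counts once, and 2.76% of 18184 other genes had a correlation of 0.7 or more with the score and 1.97% had -0.7 or less. Other secreted plasma proteins followed the members: 10 of 25 measured genes reached 0.7 and the median was 0.60. Ambp, the precursor of alpha-1-microglobulin and bikunin, reached 0.94, Serpina6, which carries corticosteroids, 0.91, Rbp4, the retinol carrier of blood, 0.91, and Itih2, a hyaluronan-binding plasma protein, 0.88. Of the 25 genes, 16 had a mean signal under 5, 6 of the 9 brighter ones reached 0.7, and Cpn1, a subunit of a plasma carboxypeptidase, had -0.66.

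Genes by which yolk sac endoderm takes up and moves nutrients did not follow the members. Of 21 genes in that list, 0 reached 0.7, 1 was at -0.7 or less, and the median was -0.16. Cubn and Amn encode a receptor complex for protein uptake that acts in the visceral yolk sac endoderm, among other tissues. Cubn ran only from 4.60 to 5.13 and Amn from 3.76 to 4.37, with correlations of -0.24 and -0.54. Lrp2, their partner in endocytosis, had -0.73, and the highest value was 0.63 for the iron exporter Slc40a1. The mean of the list ran from 5.75 to 6.04 over the 18 arrays, beside 5.68 to 6.97 for the members. Of the 21 genes 9 had a mean under 5, Cubn and Amn among them, so their signals cannot be told from background and speak neither for nor against yolk sac tissue. The 12 brighter genes, none of which reached 0.7, ran from -0.73 to 0.63 with a median of -0.12. The yolk sac origin in the name of the set was thus not shown by these markers, and the members are called plasma protein genes.

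Lists for other sources gave few genes alike. Of 12 endoderm transcription factors, 0 reached 0.7 and the median was -0.11, with Hnf4a at 0.26 and Gata6 at -0.56. Of 8 liver bud genes 0 reached 0.7. The highest of them were Onecut1 at 0.66 and Lhx2 at 0.58, and the list's median was -0.02. Of 12 gut tube epithelium genes, 0 reached 0.7 and 3 were at -0.7 or less, including the tight junction gene Cldn6 at -0.82 and the keratin gene Krt19 at -0.73, with a median of -0.48. Neither 10 trophoblast genes, 9 of them with a mean under 5, nor 10 decidua and uterus genes held a member at 0.7, with medians of -0.19 and -0.30. The mean of the decidua list ran from 4.92 to 5.62. These counts depended on both arrays that stand apart. Without them the liver bud genes Prox1 (0.79, from 0.45) and Onecut1 (0.75) reached 0.7. So did Shh of the gut tube list (0.77, from 0.16) and Igfbp1 of the decidua list (0.71, from 0.49). Krt18 of the gut tube list then fell to -0.77, from -0.38.

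Genes of primitive red cells and of embryo maturity followed the members more. Of 9 red cell genes, 1 reached 0.7 (Hba-x, an embryonic globin, at 0.74) and the median was 0.65. Of 10 genes in the embryo maturity list, 7 reached 0.7, with a median of 0.80. They included the neuronal genes Elavl4 at 0.89, Dcx and Stmn2 at 0.84, and Tubb3 at 0.82, while Neurod1 had 0.55. Most genes of this list are neuronal, so maturity and the share of neural tissue cannot be told apart by it. Lin28a, an RNA-binding protein that blocks let-7 processing and declines as embryos advance, had -0.86, the only 1 of the 10 at -0.7 or less. Its relative Lin28b, with a dim mean signal of 3.59, had 0.15. Among all other genes the 10 most alike were Ambp and Wnt7b at 0.94, Scg3 at 0.92, and Serpina6, Lhfp, 6330403K07Rik, Rab3c, Stmn3, Rbp4 and Hes6 at 0.91. Only 3 of these, Ambp, Serpina6 and Rbp4, are on the plasma protein list.

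The score gives most weight to Afp, Alb and Ttr, which vary most. With each member's deviation divided by its SD, a choice made after seeing the data, 8 of 25 other plasma proteins, 7 of 10 maturity genes and 0 of 9 red cell genes (Hba-x 0.69) reached 0.7. Of the gut tube genes 1 was then at -0.7 or less (Krt19 -0.65), and of the yolk sac uptake genes 0 (Lrp2 -0.66). The list medians were 0.57 for plasma proteins, 0.75 for maturity, 0.62 for red cells, -0.44 for gut tube and -0.09 for yolk sac uptake. The 10 most alike genes had correlations of 0.85 to 0.91 with that score.

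**Figure D3:**
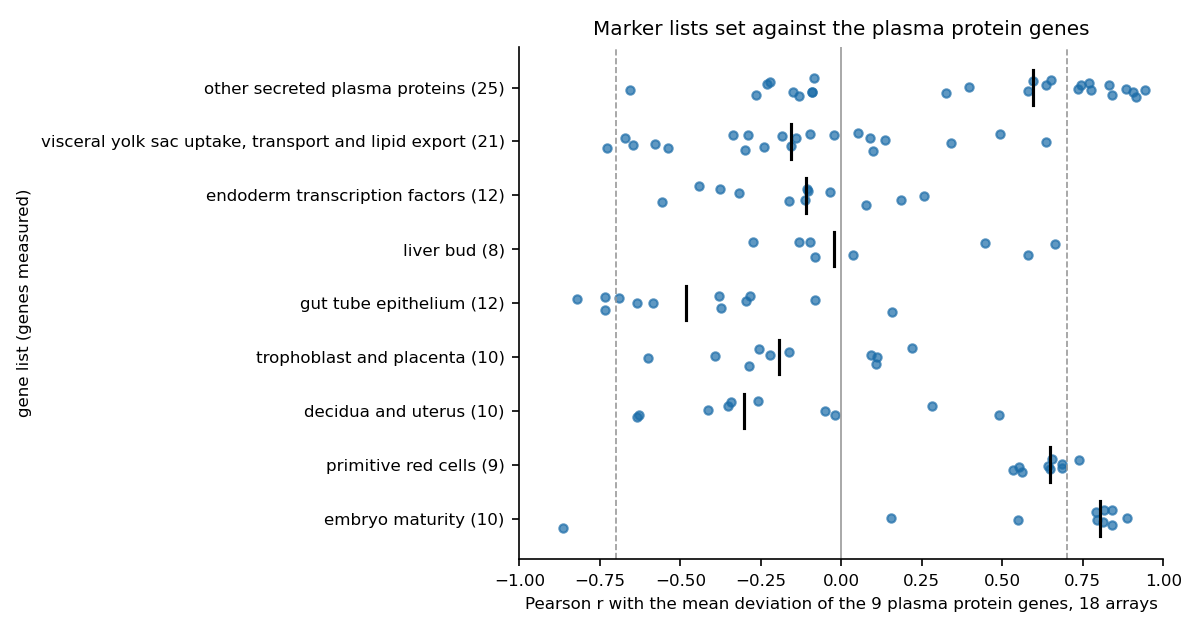
Pearson correlation of each gene (point) with the mean deviation of the 9 plasma protein genes over 18 arrays (horizontal axis), for 9 gene lists (vertical axis, with the number of genes measured). Black bars are medians and dashed lines mark 0.7 and -0.7. Embryo maturity genes (median 0.80), red cell genes (0.65) and other secreted plasma proteins (0.60) lie to the right, and yolk sac uptake genes (-0.16) lie around 0.

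After this likeness had been seen, every probe set was regressed on the Lin28a signal, which ran from 9.29 on the first Neo2/Neo array to 11.73 on the second Neo2/Neo2 array. The slopes therefore describe a pattern found in the same arrays and are no independent support for it. Of 23 member probe sets 15 were called lower with higher Lin28a and 0 higher, beside 5.16% of all probe sets called lower, 4.79% higher and 9.96% in either direction. Among the brightest probe sets, 5 of 9 genes were called. Per unit of log2 Lin28a, Afp fell by 1.19 (SE 0.17, limma adjusted p = 0.000163), Alb by 0.85 (SE 0.11, limma adjusted p = 4.49e-05), Ttr by 0.68 (SE 0.14, limma adjusted p = 0.00397), Apoa2 by 0.51 (SE 0.11, limma adjusted p = 0.00453) and Apom by 0.26 (SE 0.05, limma adjusted p = 0.00264).

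The brightest Apoa1 probe set had a slope of -0.24 (SE 0.08, limma adjusted p = 0.0793), and the 3 dimmer ones passed, at -0.26, -0.39 and -0.34. Apob (-0.11, limma adjusted p = 0.507), Apoa4 (0.10, limma adjusted p = 0.136) and Apoh (0.16, limma adjusted p = 0.0713) did not pass. The same 5 genes were called under every other setting tried and without each array in turn.

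The Pearson correlation with Lin28a over 18 embryos was -0.87 for Alb (rho -0.90) and -0.84 for Afp (rho -0.81). In a permutation test with 100000 resamples, two-sided, the p of r was 1e-05 for both, the smallest the resamples can give, and that of rho was 1e-05 for Alb and 0.00013 for Afp, among 9 such relations. Lin28a was taken up after its likeness to the members had been seen in these arrays. The permutation p-values do not allow for that choice and are no independent support. The shuffles ran over all 18 embryos without regard to genotype. Without both Neo2/Neo arrays, which were farthest from the Lin28a median, r was -0.81 for Alb and -0.77 for Afp. For Ttr r was -0.74 (permutation p = 0.00046) and rho -0.56 (permutation p = 0.017), with an r of -0.60 without those arrays. For Apob r was -0.29 (permutation p = 0.25) and rho -0.42 (permutation p = 0.087).

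**Figure D4:**
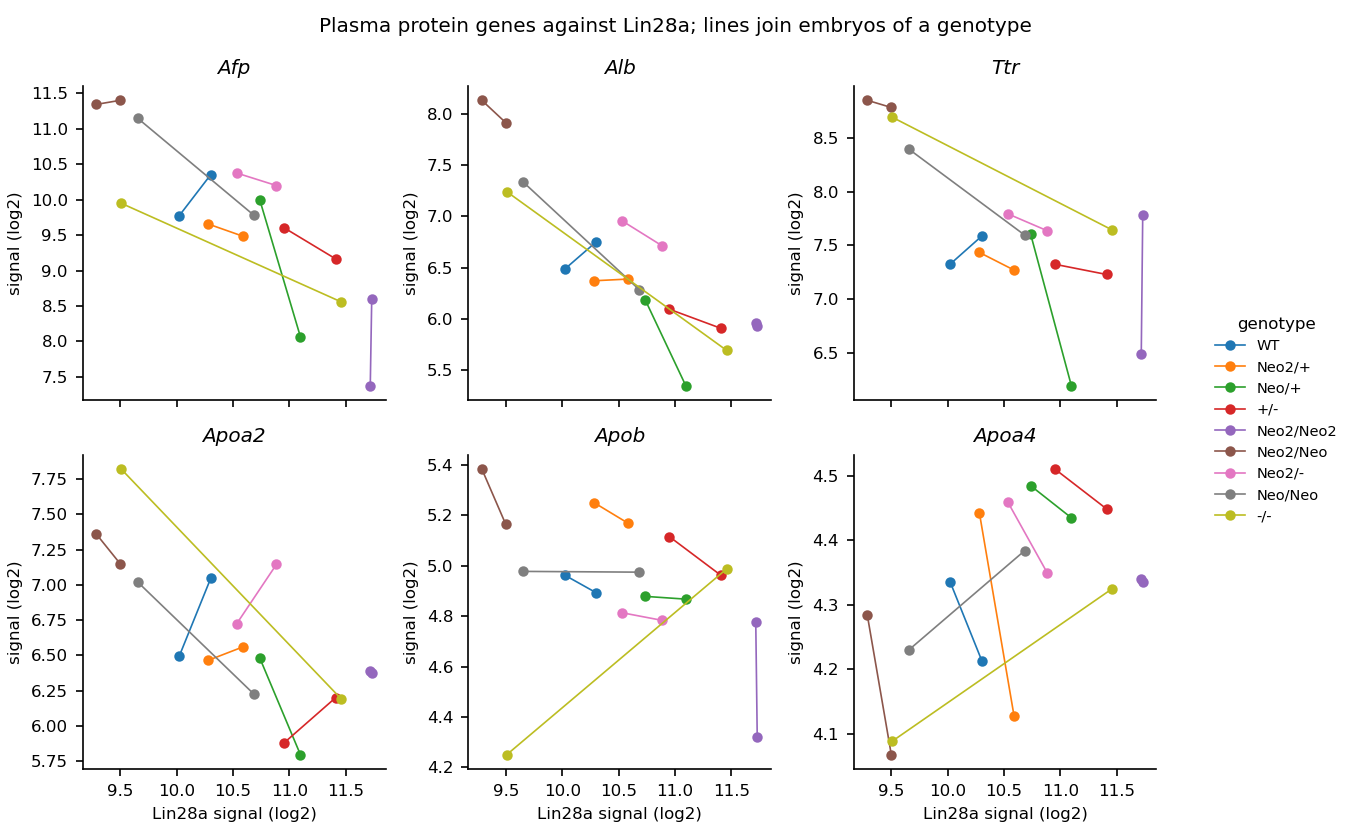
Log2 signal of 6 plasma protein genes (vertical axes, each on its own scale) against the log2 signal of Lin28a (horizontal axis), 1 point per embryo, with lines joining the embryos of a genotype. Afp and Alb are lower where Lin28a is higher, with correlations of -0.84 and -0.87, and Apob and Apoa4 show no such slope that passed.

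Within genotypes fewer member probe sets passed. With 9 genotype means in the fit, 2 of 23 member probe sets were called lower and 0 higher, beside 1.7% of all probe sets called lower, 1.11% higher and 2.8% in either direction. Alb fell by 0.82 per unit of Lin28a (SE 0.11, limma adjusted p = 0.00571), and the other was a dimmer Apoa1 probe set at -0.41 (limma adjusted p = 0.0485). Afp had -0.89 (SE 0.29, limma adjusted p = 0.125), Apoa2 -0.69 (SE 0.17, limma adjusted p = 0.0579) and Ttr -0.62 (SE 0.23, limma adjusted p = 0.182), and 18 of 23 had an unadjusted p under 0.05, beside 17.7% of all probe sets. Several probe sets of 1 gene were counted apart here as well.

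The slope of Alb within genotypes no longer passed without either -/- array, although at -0.87 it was not smaller than the -0.82 of all arrays. Without both arrays that stand apart it was -0.94. It did not pass there either, in a fit where almost no probe set of the whole array was called. The -/- embryos differed most in Lin28a, at 9.51 and 11.46, and the first of them is on the array that stands apart, with Prap1 at 10.74. Of the 2 embryos of a genotype, that with the lower Lin28a had the higher Alb in 7 of 9 genotypes, the higher Ttr in 7, the higher Afp and Apom in 6, the higher Apoa2 in 5 and the higher Apoa1 in 4. The same count was 8 for Apob, 7 for Apoa4 and 4 for Apoh, whose slopes did not pass, so these counts do not set the called genes apart.

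The other lists are given by their counts on the Lin28a slope over all embryos and then within genotypes, beside 9.96% and 2.8% of all probe sets called in either direction. Of the other secreted plasma proteins, 8 of 25 were called lower and 1 higher over all embryos, and 0 of 25 within genotypes. On the slope over all embryos, Serpina6 fell by 0.84 (SE 0.13, limma adjusted p = 0.000264) and Ambp by 0.65 (SE 0.10, limma adjusted p = 0.000312), and Cpn1 rose by 0.21 (SE 0.04, limma adjusted p = 0.00296). Of 10 maturity genes, a list that holds Lin28a itself, 8 were called lower over all embryos and 4 within genotypes, with Dcx falling by 1.11 over all embryos (SE 0.15, limma adjusted p = 5.21e-05). Of 9 red cell genes, 5 were called lower over all embryos and 0 within genotypes, with Hba-x falling by 0.20 over all embryos (SE 0.04, limma adjusted p = 0.00384).

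Of 12 gut tube genes, 6 were called higher over all embryos (Cldn6, Krt19, Krt8, Cdx2, Epcam and Cldn7) and 3 within genotypes (Cldn6, Cdx2 and Cdh1), and 6 did not pass over all embryos. Of 8 liver bud genes, Onecut1 and Lhx2 were called lower over all embryos and 0 within genotypes. The remaining lists had 1 to 3 genes called over all embryos. Of 21 yolk sac uptake genes, Slc40a1 was called lower and Lrp2 and Spink1 higher over all embryos, and Lrp2 higher within genotypes. Of 12 endoderm transcription factors, Gata4 and Gata6 were called higher over all embryos and 0 within genotypes. Of 10 trophoblast genes, Plac1 was called higher over all embryos and 0 within genotypes. Of 10 decidua and uterus genes, Cryab and Prl8a2 were called higher over all embryos, and within genotypes Hsd11b2 higher and Prap1 lower. The call on Prap1 rests on the first -/- array, at 10.74 against 4.03 to 4.67 elsewhere. The calls within genotypes in all these lists carry the limit given for Alb. Almost no probe set of the whole array was called there without both arrays that stand apart. Developmental age, litter and the share of liver, yolk sac or neural tissue in each embryo were not measured, and their part in the spread was not tested.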

How the data were processed

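RNA of 18 whole embryos was hybridised to Affymetrix Mouse Genome 430 2.0 arrays after labelling 6 ug of total RNA, per the labels' protocols. The deposited values are log2 signals, and the submitters' processing notes name affy and RMA as the tools, with no versions stated. RMA equalises the value distributions of arrays, so a change shared by most genes is not seen. Array medians were 5.73 to 5.94. The number of arrays limits the precision, and RMA values carry no detection call.

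The deposited annotation gave 34945 of 45037 probe sets 1 gene symbol, 932 several and 9160 none. Where a gene needed 1 value, its probe set with the highest mean over 18 arrays was used. Differences were tested two-sided with limma 3.58.1 in R 4.3.3 (lmFit and eBayes, 9 residual and 3.63 prior degrees of freedom with 9 genotype means), without a filter, and adjusted by Benjamini-Hochberg over all probe sets, with calls at 0.05. A fit with 3 means by wild-type alleles and slopes on Tbx1 and Lin28a used the same values. Permutation tests were coded with numpy 2.4.6, with ranks and rho from scipy 1.17.1. The alternatives were a filter at a mean of 5, an intensity trend, array weights, sex, a replicate block, median centring, quantile normalization again, and leaving out arrays. In simulated data for -/- against WT over 45037 probe sets, the fit recovered 7.46% of changes of 0.5, 80.6% of 1 and 95.5% of 2 on the log2 scale, out of 200 changed probe sets, with 5 false calls. The changed probe sets were drawn at random from the array. Afp, Ttr and Alb had within-genotype SDs of 0.73, 0.56 and 0.50, while the median SD of all genes over 18 arrays was 0.16. The recovery therefore does not apply to these 3 genes, for which none was simulated.

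The genes named were the members, Tbx1, the 10 genes most like the member score, and from each list up to 4 genes with the highest correlation and those called in a comparison; other list genes were named after their values were seen. The members, the lists and the comparisons were chosen with earlier results of these data known.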

Additional observations from a re-analysis of the deposited data

Results flagged for a closer look

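In 3 of 18 groups formed by gene and number of wild-type alleles, an outlier rule placed 1 array far from the others. That rule gives about 1 in 20 by chance for independent values from 1 normal population. Here the groups pool genotypes and several of the genes vary together, so that rate does not apply. Ttr on the first Neo2/Neo2 array was 6.49, while the nearest of the other arrays without a wild-type allele was at 7.60. Ttr on the second Neo/+ array was 6.19, while the nearest of the other arrays with 1 wild-type allele was at 7.23. Both embryos also had the lowest Afp signals of the series, at 7.37 and 8.06. Apoa4 on the first Neo2/+ array was 4.13, while the nearest of the others was at 4.44, in a signal that cannot be told from background.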

How the results depend on the processing

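The count of member probe sets with any genotype difference, 1 as reported, was 0 with the filter on dim probe sets, with an intensity trend, with sex as a covariate, with the replicate block, with median centring and with quantile normalization again. It was 5 with array weights, 3 without both arrays that stand apart, and 0 to 4 over fits without each single array. The count on the Lin28a slope within genotypes, 2 as reported, was 5 with the filter, 1 with the trend, 1 with median centring, 1 with quantile normalization again, 0 with the replicate block (Alb -0.78, limma adjusted p = 0.0686), 0 without both arrays that stand apart, and 0 to 3 without single arrays. Neo2/Neo2 against WT gave 1 without both arrays that stand apart. Leaving out single arrays gave 0 to 1 in -/- against WT and 0 to 3 in -/- against the mean of Neo/Neo, Neo2/Neo, Neo2/Neo2 and Neo2/-. In the filtered fit Apoh was not tested. For the other changes the cause was not tested. Calls over all probe sets moved with the settings as well. For any genotype difference they numbered 124 as reported, 1335 with array weights and 57 with sex as a covariate. On the Lin28a slope within genotypes they numbered 1262 as reported and 138 with the replicate block. Without both arrays that stand apart they rose for any genotype difference and for Neo2/Neo2 against WT, and nearly vanished on the slope within genotypes. No result changed sign where it was called. The count on the overall Lin28a slope, 15 as reported, was 12 to 18 under these settings, and the other counts stayed at 0. Over all probe sets that slope gave 4484 calls as reported, 9870 with array weights and 3574 with the replicate block. The median likeness between members was 0.14 to 0.36 without single arrays. The replicate numbers were not taken as a pairing of the embryos. Over 36 pairs of genotypes, same-numbered deviations correlated from -0.26 to 0.19, with 9 pairs above 0.1. Of 18 arrays, 12 were most like arrays of their own number. Beyond the fit with a replicate block, an effect of replicate number was not tested.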
